A study of Mus musculus with 12 samples.

Results

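The 3229 regions described here are stretches of open chromatin that were listed as peaks in all 12 libraries of the study and lay at least 50 kb from every protein-coding gene. They were found by merging the peaks of the 12 lists on chromosomes 1 to 19 wherever they shared at least 1 bp, which gave 95132 merged regions. Of these, 22472 were listed in all 12 libraries and are called constitutive below, and 3229 of the 22472 (14.4%) met the distance rule against the gene spans of the RefSeq annotation of GRCm38.p6. The remaining constitutive regions comprised 4324 intergenic regions less than 50 kb from a gene and 14919 that overlapped a gene. Members were chosen by their presence among the called peaks of all 12 libraries, which is a measured value, and by their distance from genes, so neither is a finding.

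The cells were mouse embryonic stem cells of a BL6xCAST background with a synthetic construct integrated on chromosome X, either synHPRT1R, named in the study's title as reversed sequence, or synHPRT1. Each genotype was represented by 2 clones with 3 replicates per clone, 6 libraries per genotype, and each line was a single clone. All lines grew on gelatin in a mixture of 2i medium and embryonic stem cell medium, both with LIF, so the kinase inhibitors CHIR99021 and PD0325901 and LIF were shared by both genotypes. The study asked whether the synthetic sequences were open in these cells and how they compared with the genome around them, and the members are part of that genome. The labels do not say whether the replicates of a clone were separate cultures, so the spread behind the p-values is that among libraries and may be technical.

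ATAC-seq uses a transposase that cuts DNA where nucleosomes and other proteins leave it accessible, so a peak marks DNA that was open in at least part of the cells. Open regions far from genes include distal enhancers, insulator sites bound by CTCF, promoters of non-coding transcripts and retroelements. A second kind of signal also appears far from genes, because repeated sequence that the assembly holds in fewer copies than the genome collects reads from every copy. In bulk cells, a site open in fewer cells and a site less open in each cell cannot be told apart.

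The lists held 38403 to 63704 peaks per library. Each deposited fold is the summit pileup over the local background, with 1 added to both, and the pileup could be recovered from the fold and its p-value. The genome-wide background was 1.98 to 2.88 reads in synHPRT1R and 1.74 to 3.72 reads in synHPRT1 libraries. Below, relative pileup is the summit pileup divided by this background, and the fold percentile ranks a peak within its own list from 0 (weakest) to 100 (strongest). Unless said otherwise, a value of a region is its median over the 12 libraries. Of 8 markers of embryonic stem cells, 7 had a start or end with a peak no more than 2 kb away in all 12 libraries, and Esrrb did so in 1 library. Of 13 markers of other cells, Sox17 and Cdx2 did so in all 12 libraries, Col1a1 and Twist2 in 11, Gata6 in 10, Col1a2 in 8, Thy1 in 1, and Col3a1, Gata4, Elf5, Alb, Ins2 and Cd3e in none. Their part in the values below was not tested.

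The distance rule kept out promoters of protein-coding genes, so only those of other genes could lie at members. A RefSeq promoter window, from 250 bases before to 50 after a transcript start, was overlapped by 99 members (3.07%), and in 35 of these the median summit fell inside the window. The windows shown belong to 4 non-coding genes at members described below and differ in their number of CpG, with every CpG in capitals and each sequence written 5′ to 3′ on its gene's strand (RefSeq, GRCm38.p6). Tunar is a long non-coding RNA of embryonic stem cells and the nervous system, Platr22 was named as a pluripotency-associated transcript, Mir205hg is the host gene of miR-205, and BC002059 is annotated as a long non-coding RNA.
Tunar: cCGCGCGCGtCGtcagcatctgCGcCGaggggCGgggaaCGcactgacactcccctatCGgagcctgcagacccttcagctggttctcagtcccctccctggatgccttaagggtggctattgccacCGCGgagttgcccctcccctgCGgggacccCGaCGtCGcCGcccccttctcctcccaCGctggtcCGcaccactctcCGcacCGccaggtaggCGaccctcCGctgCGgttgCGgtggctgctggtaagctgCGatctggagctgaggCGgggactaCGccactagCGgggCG
Platr22: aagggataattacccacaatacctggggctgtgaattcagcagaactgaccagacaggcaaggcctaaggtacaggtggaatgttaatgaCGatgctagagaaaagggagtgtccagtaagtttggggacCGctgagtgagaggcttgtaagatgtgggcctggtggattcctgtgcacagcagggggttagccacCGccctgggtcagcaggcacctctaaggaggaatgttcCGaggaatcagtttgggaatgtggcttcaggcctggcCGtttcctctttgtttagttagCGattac
Mir205hg: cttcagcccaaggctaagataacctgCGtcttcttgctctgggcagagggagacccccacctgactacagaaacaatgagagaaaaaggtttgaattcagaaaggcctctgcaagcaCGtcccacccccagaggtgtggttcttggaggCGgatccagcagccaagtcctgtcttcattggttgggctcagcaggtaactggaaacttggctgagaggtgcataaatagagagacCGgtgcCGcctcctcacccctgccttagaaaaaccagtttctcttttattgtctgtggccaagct
BC002059: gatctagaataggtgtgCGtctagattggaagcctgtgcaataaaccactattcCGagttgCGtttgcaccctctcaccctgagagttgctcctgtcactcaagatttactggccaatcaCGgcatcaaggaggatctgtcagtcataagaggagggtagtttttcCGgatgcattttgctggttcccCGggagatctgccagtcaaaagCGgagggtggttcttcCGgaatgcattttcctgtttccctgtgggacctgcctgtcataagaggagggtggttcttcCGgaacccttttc
The windows lie at chr12:105336743-105337042 on the plus strand, chr1:136695961-136696260 on the plus strand, chr1:193510161-193510460 on the minus strand and chr17:16951286-16951585 on the plus strand.

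The Tunar window held 30 CpG and 69.7% G and C, and the 9 CpG of BC002059, 6 of Platr22 and 5 of Mir205hg show how different the start sites at members were. The member at Tunar (chr12:105336148-105337826, 113 kb from Tcl1) had relative pileups of 9.32 at the lowest, 11.4 at the median and 14.2 at the highest in synHPRT1R, against 9.26, 10.6 and 16.2 in synHPRT1 libraries. The member at BC002059 (chr17:16950784-16951888) had 26.5, 29.4 and 32.3 in synHPRT1R, against 25.6, 28.3 and 31.1 in synHPRT1 libraries. The genotypes overlapped at both sites, and the BC002059 window, with fewer CpG than the Tunar window, lay under the stronger peak, at fold percentile 99.2 against 80.1 for Tunar. The Platr22 member (chr1:136694998-136696646) had relative pileups of 17.7, 20.3 and 23.2 in synHPRT1R and 16.3, 19.8 and 21.2 in synHPRT1 libraries. Its fold percentile was only 61.6, beside a local background 3.06 times the genome-wide one.

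Over the 121 distinct windows at members, the median was 7 CpG, the same as over the 31365 windows of all genes on chromosomes 1 to 19 and above the 4 CpG of the 11310 windows of lncRNA genes. At least 15 CpG were held by 21.5% of the windows at members, 35.2% of all windows and 12.3% of lncRNA windows. Motifs were searched on both strands, and no motif's letters contain those of another. The GC box GGGCGG, a site of Sp factors, was present in 27.3% of the windows at members, 36.0% of all windows and 16.3% of lncRNA windows. The octamer ATGCAAAT, the site of POU factors such as Pou5f1, occurred in 5 windows at members (4.13%), 1.75% of all windows and 1.87% of lncRNA windows. The STAT site TTCCNGGAA occurred in 4 windows (3.31%), 2 of which overlap at C330002G04Rik, 1.18% of all windows and 1.12% of lncRNA windows. The ESRRB site TCAAGGTCA and the cAMP response element TGACGTCA were found in 0 windows at members. They occurred in 0.418% and 1.83% of all windows, and in 0.557% and 0.99% of lncRNA windows. With 121 windows at members, the counts of these 4 motifs are few, and their differences were not tested. Members with a promoter window were wider than those without one, with medians of 729 bp and 652 bp, and had fold percentiles of 74.7 and 75.05.

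MicroRNA genes were also near members. A member at chr3:17793541-17795767, 153 kb from Cypt12, overlapped Mir124a-2, a precursor of the neuronal miR-124. The hairpins of miR-205, known from epithelia, and miR-137, known from neurons, lay 711 bp and 405 bp from a member. Their mature sequences are shown with the seed (bases 2 to 8) in capitals, and the 4 arms have 4 different seeds.
mmu-miR-205-3p: gAUUUCAGuggagugaagcuca
mmu-miR-205-5p: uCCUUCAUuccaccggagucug
mmu-miR-137-5p: aCGGGUAUucuuggguggauaau
mmu-miR-137-3p: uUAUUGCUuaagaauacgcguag
The member beside miR-137 (chr3:118434334-118435288, 127 kb from Dpyd) had relative pileups of 7.30, 10.7 and 12.3 in synHPRT1R, against 8.62, 10.3 and 11.5 in synHPRT1 libraries, at fold percentile 57.5. The member beside miR-205 (chr1:193508241-193508933) had 8.34, 10.4 and 12.7 in synHPRT1R, against 8.87, 11.1 and 14.9 in synHPRT1 libraries. Its fold percentile was 2.18, beside a local background 3.29 times the genome-wide one. The fold divides by that background, so similar pileups gave these 2 members very different ranks.

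The members covered a wide range of folds. Their median fold was 6.77, with 4.99 and 9.61 at the 10th and 90th percentiles of members and a range from 1.94 to 47.1. Their median fold percentile was 75.04, and 574 members (17.8%) reached at least the 90th percentile of their lists, against 18.2% of all constitutive regions. That share is near the background, so high rank did not mark the members as a class. When each library was left out and constitutive regions were rebuilt from the other 11, the library listed 98.0% ± 1.80 of the far regions and 98.4% ± 1.53 of the other constitutive regions (SD, n = 12). The lowest value was 93.7%, in synHPRT1 clone 2 replicate 3, the library with the lowest background of 1.74 reads. A further 788 regions far from genes were listed in 11 of the 12 libraries, and 218 of them were absent from that library alone. Those 788 regions had a median fold percentile of 51.3, below the members' 75.04. Weaker peaks are missed more often, so this order follows from the rule and is not a finding. Of all 16144 merged regions far from genes, 20.0% were constitutive, against 16.4% of intergenic regions within 50 kb and 28.3% of regions overlapping a gene.

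Distance from genes reached 2148 kb. The median was 168 kb, and 2248 members (69.6%) lay at least 100 kb, 1183 (36.6%) at least 250 kb, 539 (16.7%) at least 500 kb and 169 (5.23%) at least 1000 kb from a gene. The members just beyond 50 kb were nearest to Cacna2d1, Galnt13, Marchf10, Zcwpw2 and Zfpm2, at 50.02 to 50.22 kb, with fold percentiles of 41.8 to 90.5. The constitutive regions just short of 50 kb, which are not members, were nearest to Tex35, Zfp64, A830018L16Rik, Prdx6 and Eps8l3. They lay at 49.66 to 49.91 kb, with fold percentiles of 40.4 to 78.6. Sequence at least 50 kb from a gene made up 839 Mb, or 34.9% of the span from the first to the last region of each chromosome. It held 3.85 members per Mb, against 12.3 other constitutive regions per Mb of the remaining sequence.

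Of the 5 farthest members, 3 were nearest to protocadherin genes, which encode adhesion proteins of neurons. The one farthest from a gene (chr14:82294510-82295288) lay 2148 kb from Pcdh17 and had relative pileups of 4.94, 7.17 and 9.95 in synHPRT1R, against 6.18, 7.44 and 9.88 in synHPRT1 libraries. The next (chr14:82083506-82085165) lay 2060 kb from Olfm4 and had 10.0, 13.7 and 15.9 in synHPRT1R, against 11.1, 13.2 and 16.1 in synHPRT1 libraries. Their fold percentiles were 41.0 and 94.5, far apart at nearly the same distance. The other 3 of the 5 farthest members lay 2039 kb from Pcdh9, 1976 kb from Pcdh17 and 1972 kb from Tmeff2, with fold percentiles of 83.0, 89.4 and 57.0.

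How the members compared in height with other constitutive regions depended on the measure. By fold, the median percentile of the members was 74.6 ± 3.60 in synHPRT1R and 74.8 ± 5.28 in synHPRT1 libraries (SD, n = 6 each). Over all 12 libraries it averaged 74.7, against 74.2 for the other constitutive regions, a difference of 0.534 ± 1.25 that was positive in 6 libraries, 0 in 5 and negative in 1 (p = 0.188, two-sided exact sign-flip permutation test). Against intergenic regions within 50 kb, whose median percentile averaged 69.2, the members were higher in 12 of 12 libraries, by 5.57 ± 1.09 (p = 0.000488 by the same exact test, the smallest it can give). By summit pileup the order turned round. The members' median pileup percentile was 69.4, against 75.9 for other constitutive regions and 71.2 for intergenic regions within 50 kb, differences of −6.56 ± 1.76 (p = 0.000488) and −1.84 ± 1.47 (p = 0.00781, exact sign-flip permutation tests). The second rests on steps of whole reads. The medians were equal in 4 libraries, all of synHPRT1R, and the members were lower in the other 8. The mean of this difference was −0.797 ± 1.29 in synHPRT1R and −2.89 ± 0.687 in synHPRT1 libraries (SD, n = 6 each). The higher fold of members than of regions within 50 kb thus stood on summits that were not higher.

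**Figure D1:**
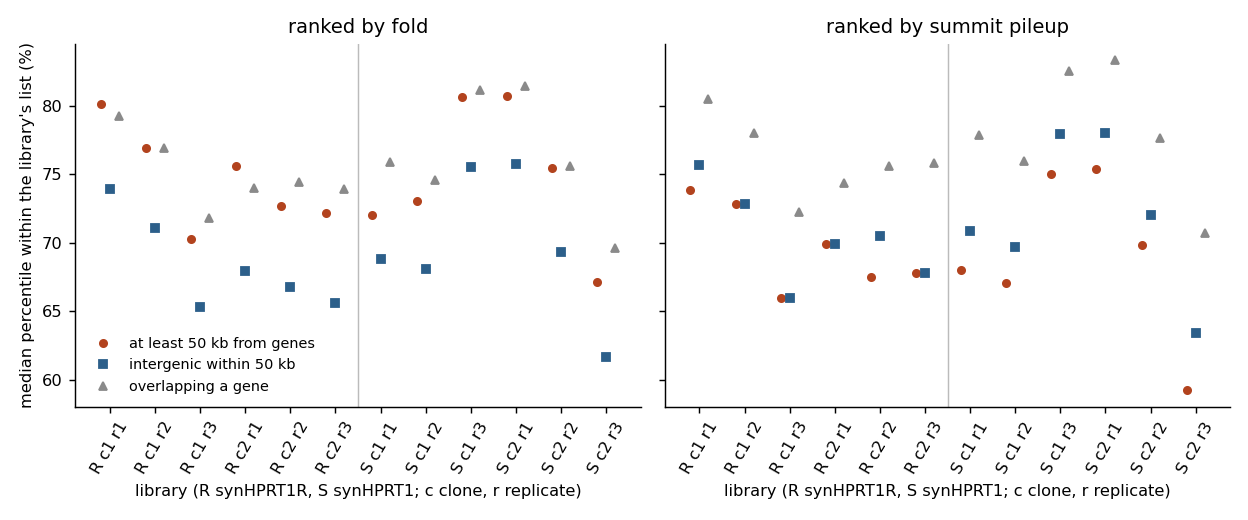
Median percentile within each library's list (y axis, percent) of the 3 classes of constitutive regions, ranked by deposited fold (left) and by recovered summit pileup (right), with 1 point per class and library (x axis, synHPRT1R left of synHPRT1). By fold the far regions lie above intergenic regions within 50 kb in 12 of 12 libraries, and by pileup they lie below or level with them.

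The local background, which is the divisor of the fold, moved with this turn. The median local background of the members was 1.00 times the genome-wide one, against 1.17 within 50 kb of a gene and 1.25 over genes. Without the regions of high local background described below, the share of members at the genome-wide background was 50.4% at 50 to 100 kb, 62.8% at 100 to 250 kb, 70.2% at 250 to 500 kb, 75.7% at 500 to 1000 kb and 74.5% beyond 1000 kb. It was 37.5% for intergenic regions within 50 kb and 28.1% for regions over genes. Over the same 5 distance ranges, the median fold percentile of the members was 73.0, 74.5, 76.7, 77.7 and 74.9. The median relative pileup was 9.86, 9.58, 9.66, 9.64 and 9.23. The rank by fold went up with distance as far as 1000 kb while the height did not.

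**Figure D2:**
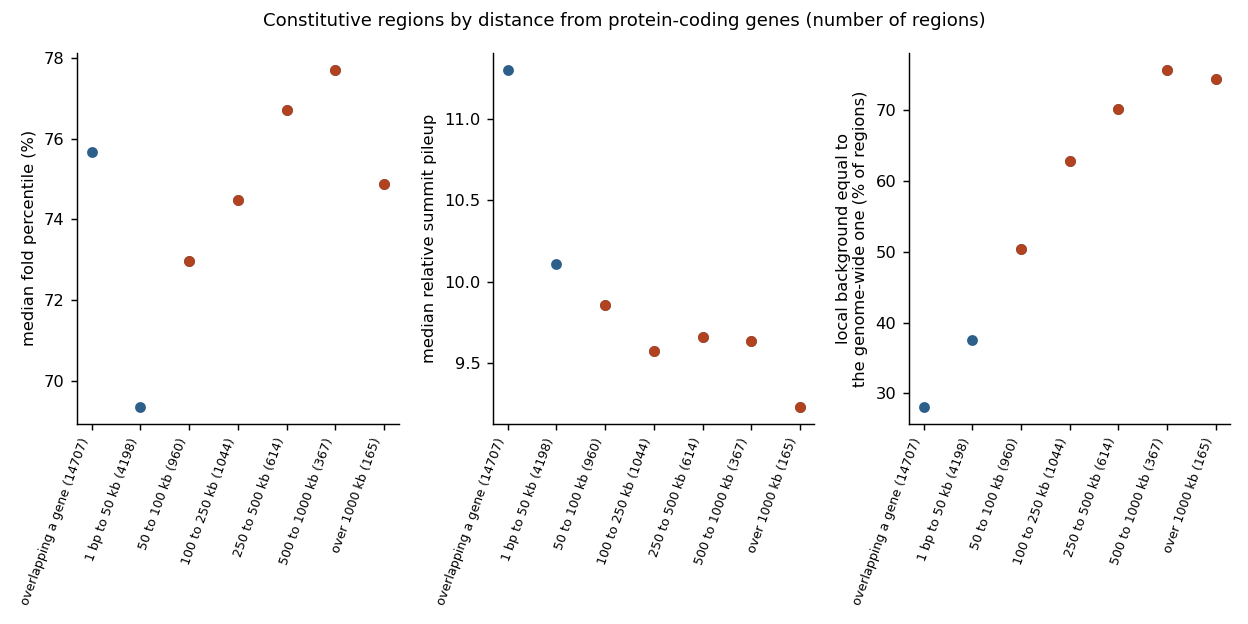
Median fold percentile (left), median relative summit pileup (middle) and percentage of regions whose local background equals the genome-wide one (right), by distance from the nearest protein-coding gene (x axis, with the number of regions), for members (red) and other constitutive regions (blue), without regions of high local background. The axes do not start at 0, and the share of members at the genome-wide background runs from 50.4% to 75.7%.

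Peaks at members were narrower than those of the all other constitutive regions and wider than those of intergenic regions within 50 kb. The median width was 661 ± 64.1 bp for members and 721 ± 75.5 bp for other constitutive regions, a difference of −60.1 ± 15.7 bp that was negative in 12 of 12 libraries (SD, n = 12; p = 0.000488, two-sided exact sign-flip permutation test). Against intergenic regions within 50 kb the members were wider in 12 of 12 libraries, by 46.0 ± 11.6 bp (p = 0.000488, exact sign-flip permutation test). Widths of single members ran from 201 to 5616 bp, and from 300 bp upwards wider peaks ranked higher. The 30 members under 300 bp had a median fold percentile of 66.8, the 678 of 300 to 500 bp 62.4, the 1144 of 500 to 700 bp 73.2, the 949 of 700 to 1000 bp 80.8 and the 428 of at least 1000 bp 82.4. Width and fold come from the same reads, so this is a description.

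The width difference was smaller in synHPRT1R than in synHPRT1 libraries, a comparison added after the values were seen. Members minus other constitutive regions gave −64.0, −52.0 and −37.0 bp (lowest, median and highest) in synHPRT1R, against −86.0, −72.5 and −50.0 bp in synHPRT1 libraries. The means differed by 19.8 bp (−50.2 ± 10.6 bp in synHPRT1R and −70.0 ± 14.0 bp in synHPRT1, SD, n = 6 each; p = 0.026, two-sided exact permutation test). Against intergenic regions within 50 kb, the values were 46.0 to 65.0 bp in synHPRT1R and 28.0 to 43.0 bp in synHPRT1 libraries. These do not overlap (difference of means 18.5 bp, p = 0.00216, exact permutation test, the smallest it can give). The clone means were −52.7 and −47.7 bp in synHPRT1R and −72.0 and −68.0 bp in synHPRT1, and with 2 clones per genotype the smallest p of an exact permutation test is 0.333. With distance measured from every annotated gene, the difference was 20.0 bp and the call was lost (p = 0.0606, exact permutation test). Members themselves were 656 ± 48.9 bp wide in synHPRT1R and 666 ± 81.2 bp in synHPRT1 libraries, against 601 ± 50.6 bp and 629 ± 83.3 bp for intergenic regions within 50 kb (SD, n = 6 each). The part of library depth, whose background ranges overlap, was not tested.

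**Figure D3:**
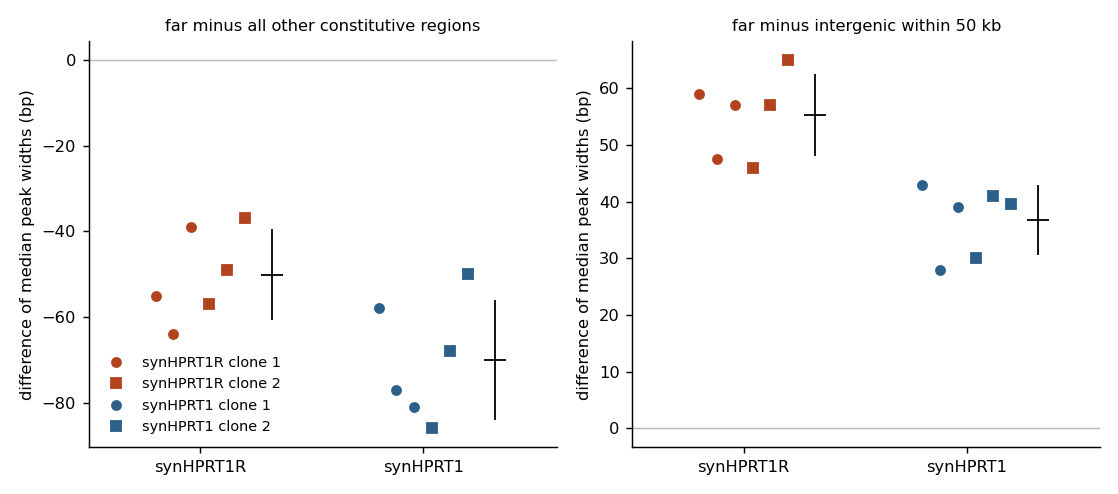
Difference of median peak widths in bp (y axis) between far constitutive regions and all other constitutive regions (left) or intergenic constitutive regions within 50 kb (right), 1 point per library, with circles for clone 1 and squares for clone 2 of synHPRT1R and synHPRT1. Bars give the mean and SD of 6 libraries, and in the right panel the synHPRT1R libraries (46.0 to 65.0 bp) lie above the synHPRT1 libraries (28.0 to 43.0 bp).

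A small set of members carried very large signals on a raised background. In 79 members (2.45%) the local background at the summit was at least 3 times the genome-wide one in all 12 libraries, against 1.86% of all constitutive regions, 2.91% of intergenic regions within 50 kb and 1.42% of those over genes. Their relative pileup had a median of 290.2, against 9.65 for the other 3150 members. Of 51 members with a relative pileup above 100, 50 were in this set. Their folds varied little between libraries, with a median coefficient of variation of 3.36%, against 15.6% in the other members. Their summits kept their place, with a median SD of 6.63 bp over the libraries, against 81.8 bp. A summit with more reads varies less by counting alone, so both contrasts are descriptions, and the part of read number was not tested. A high fold was not required, and 31 of the 79 lay below the 50th percentile of their lists.

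These members were unevenly placed. Chromosome 9 held 21 of them, chromosome 2 held 12 and chromosome 8 held 10. The 21 on chromosome 9 all lay in 1 cluster of 25 members at chr9:3000106-3259118. That cluster had a median relative pileup of 1055 and a median fold percentile of 18.9, so it weighs on the values of the whole set. Within 500 kb of the first or last region of a chromosome lay 35 of the 79, out of 81 members so placed in all. The 21 of the chromosome 9 cluster are among these 35, so this placement rests largely on 1 stretch. The lowest start of a first region over chromosomes 1 to 19 was 3000033. Whether these members overlap repeats was not tested, since sequence of the regions was not used here.

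**Figure D4:**
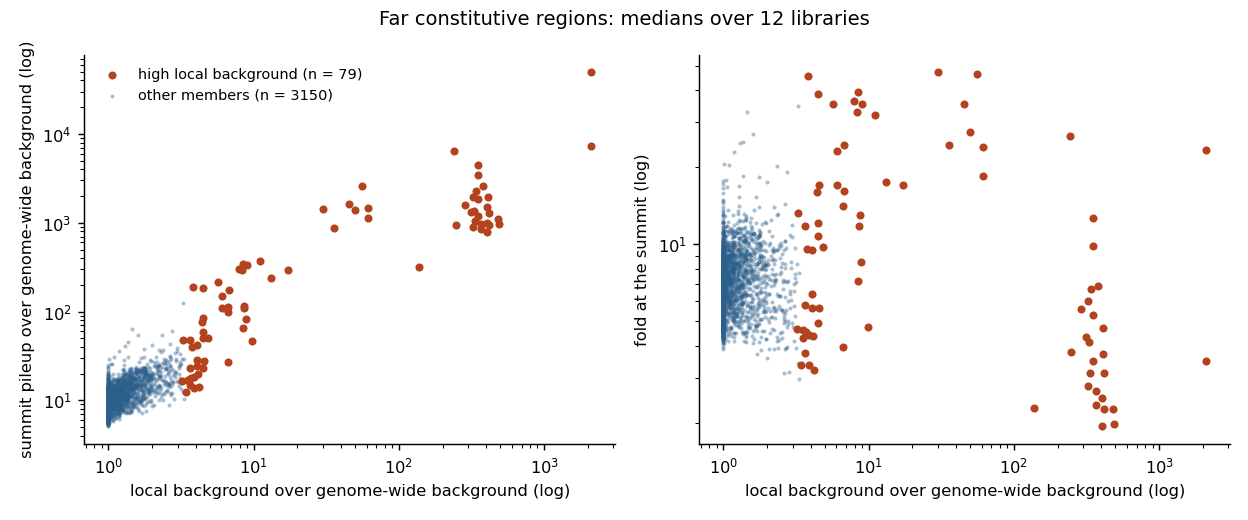
Relative summit pileup (left) and fold at the summit (right), both on log axes, against the local background divided by the genome-wide background (log x axis) for the 3229 members, as medians over 12 libraries. The 79 members with high local background (red) reach pileups up to 49430 times the genome-wide background, while their folds cover the range of the other 3150 members (blue) and beyond.

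The strongest signal of all members was at chr2:98666240-98667471, 1035 kb from Lrrc4c, which encodes an adhesion protein of synapses. Its relative pileup was 48820, 52490 and 54370 in synHPRT1R, against 39950, 46020 and 50100 in synHPRT1 libraries (lowest, median and highest of 6), and the genotypes overlapped. Its local background was 2112 times the genome-wide one, so its fold was only 23.4. A neighbour at chr2:98662235-98662790 had relative pileups of 7307, 7813 and 8087 in synHPRT1R, against 5825, 6714 and 7457 in synHPRT1 libraries. With a fold of 3.51 it ranked at percentile 9.52, so a very large signal can sit among the lowest folds. Pileups of this kind at chr12:97061434-97061786, 1140 kb from Galc, and at chr14:19416925-19419359, 114 kb from Gm2244, were 5847 to 7312 and 3557 to 4927 over all libraries.

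The widest member, at chr17:39843063-39848702 and 102 kb from Esp38, was 5616 bp wide and overlapped Rn18s-rs5, a pseudogene related to 18S ribosomal RNA. Its relative pileup was 310, 326 and 346 in synHPRT1R, against 280, 298 and 321 in synHPRT1 libraries. Its fold of 2.28 was at percentile 0.0786 of the lists, over a local background 137 times the genome-wide one. Of the other 4 widest members, those at chr9:3023477-3026759 (3104 bp, nearest to Alkbh8) and chr14:19416925-19419359 (2433 bp) were in the high-background set. Those at chr5:17244083-17247413 (2863 bp, nearest to Speer4f2) and chr9:80955895-80958546 (2428 bp, nearest to Impg1) were not, with local backgrounds of 1.62 and 1.52 and fold percentiles of 59.2 and 74.9.

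Ranking by fold alone brought up a different shape, narrow and high. Fold percentiles of at least 99.9, the top 0.1% of a list, were reached by 16 members (0.4955%), against 0.182% of all constitutive regions. Of the 16, 13 had high local background and 9 were narrower than 300 bp. First was chr12:3109879-3110098, 137 kb from Rab10, a small GTPase of vesicle transport, with a peak of 216 bp. Its relative pileup was 1397, 1542 and 1661 in synHPRT1R, against 1168, 1329 and 1501 in synHPRT1 libraries, and its fold of 46.1 to 47.5 in synHPRT1R and 46.3 to 47.8 in synHPRT1 libraries stayed within a narrow range. The second, at chr5:60042836-60043037, 1766 kb from the retrogene G6pd2, was 201 bp wide, with relative pileups of 2417, 2592 and 2830 in synHPRT1R and 2344, 2569 and 2857 in synHPRT1 libraries. The third, at chr4:64497729-64498059, 451 kb from Tnc, the gene of an extracellular matrix protein, had 189, 202 and 209 in synHPRT1R, against 171, 174 and 192 in synHPRT1 libraries.

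Of the 12 members highest by fold, the next 9 had folds from 33.0 to 39.6. They were nearest to Plk2, Adgrl2, Vmn2r87, Cr2, Nxph1, Gpd2, Gm40892, B230307C23Rik and Epha7. Of the 12, the members near Epha7, a receptor of axon guidance, and Gm40892 were outside the high-background set. The member near Epha7 lay at chr4:28176809-28177077 inside the lncRNA gene Gm52725, was 253 bp wide, and had relative pileups of 59.3, 63.1 and 72.1 in synHPRT1R, against 53.7, 61.3 and 68.3 in synHPRT1 libraries. Its local background was 1.46 times the genome-wide one. The member near Gm40892 (chr12:93576972-93577226) had a median local background of 3.27, but under 3 in at least 1 library. Its relative pileup of 124.5 was the highest outside the set.

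Further members of high fold outside the high-background set had relative pileups below that set's median of 290.2. Their pileups were still well above the median of 9.65 of the 3150 members outside it. The member at chr11:24881353-24882195, 708 kb from Bcl11a, a transcription factor of blood and brain development, was 725 bp wide. It had relative pileups of 34.4, 35.9 and 40.3 in synHPRT1R, against 32.6 at the lowest and 36.5 at the median in synHPRT1 libraries, whose highest value lay just under that of synHPRT1R, so the genotypes overlapped. That at chr3:62159051-62159454, 179 kb from Arhgef26, was narrower at 319 bp and had 41.0, 45.0 and 49.3 in synHPRT1R, against 33.6, 39.7 and 50.0 in synHPRT1 libraries. That at chr4:91639914-91640692, 240 kb from Elavl2, which encodes a neuronal RNA-binding protein, had 58.6, 61.9 and 69.5 in synHPRT1R, against 56.3, 58.9 and 64.6 in synHPRT1 libraries.

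About as many members stood in clusters as stood alone. Joined by gaps of at most 100 kb, 1702 members (52.7%) fell into 648 clusters, and 1527 were single. The exact 95% binomial interval of 51.0 to 54.4% treats members as independent, which neighbours in a cluster are not. The share that random placement would give was not computed, so 52.7% does not measure a tendency to cluster. Of the clusters, 428 held 2 members and 33 held at least 5. The largest held 25 members at chr9:3000106-3259118, all nearest to Alkbh8, a tRNA-modifying enzyme. Of these, 21 had high local background, and the median fold percentile was 18.9. The one with the highest rank, chr9:3258593-3259118, had a local background of 1.36 and relative pileups of 38.3, 46.6 and 49.0 in synHPRT1R, against 35.6, 40.2 and 47.0 in synHPRT1 libraries.

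The next clusters were of other kinds. At chr2:177259991-177398746 lay 12 members around Gm14410 and Zfp970, genes of the zinc finger family, 4 of them with high local background, at a median fold percentile of 91.0. At chr1:193449455-193732922 lay 12 members nearest to Camk1g, a calcium-dependent kinase, none with high local background, among them the members at Mir205hg and miR-205. Their fold percentiles ran from 2.18 to 91.4. The member at chr1:193731717-193732922, 361 kb from Camk1g, had relative pileups of 16.1, 21.3 and 27.1 in synHPRT1R, against 13.4, 14.9 and 15.5 in synHPRT1 libraries, so that by pileup every synHPRT1R library was above every synHPRT1 library. It did not pass the threshold between genotypes given below (limma adjusted p = 0.147). At chr12:118457642-118767354 lay 10 members around the transcription factor genes Sp4 and Sp8. Of the 2 clusters of 9, the one at chr6:102666865-102833714 was nearest to Cntn3, a neuronal adhesion gene, and the one at chr17:82169151-82465130 to Slc8a1, the sodium-calcium exchanger. The members of the Slc8a1 cluster had a median fold percentile of 90.8 and a lowest of 66.1.

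The 3229 members had 1481 nearest genes, of which 750 had a single member and 142 had at least 5. After Alkbh8 with 25 came Adam6a and Pcdh9 with 13 each, then Camk1g, Cdh8, Gm14410 and Zfp970 with 12 each, and B020011L13Rik, Cntnap5a, Cox7c, Pcdh7 and Slc8a1 with 11 each. The amount of far sequence nearest to a gene differs, and per Mb of it the order changed. Alkbh8 had 87.4 members per Mb, Gm14410 75, Zfp970 71.0, Camk1g 20.9, Slc8a1 13.9 and Adam6a 10.8. Pcdh9 with 4.11, Cdh8 with 3.90 and Cntnap5a with 4.57 were close to the 3.85 of all far sequence.

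Genes of the pluripotency list were nearest to 40 members, spread over 13 of the 43 genes on the list. The list mixes transcription factors that hold embryonic stem cells in the undifferentiated state with other genes. Among these others are Otx2 and Pou3f1, of later pluripotent states, and Dusp6 and Spry2, of ERK signalling. That was 1.24% of the members, against 1.36% of intergenic regions within 50 kb. These genes take 0.763% of the far sequence, so their density was 6.25 members per Mb, against 3.85 over all. The density was uneven over the list. Dusp6 had 25.6 members per Mb, Klf5 22.0 and Nr5a2 14.3, while Sox2 had 6.79 and Myc 6.04. The value of 6.25 is therefore not a trait of each gene on the list. The median fold percentile of the 40 was 74.1, beside 75.04 for all members, and 6 (15%) reached the 90th percentile, against 18.2% of all constitutive regions. The list was written with an earlier result on these data known.

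Sox2, which encodes a core pluripotency factor with a known distal enhancer cluster in mouse embryonic stem cells, was nearest to 5 members. The member 92.4 kb away (chr3:34744901-34745816) had relative pileups of 10.9, 12.9 and 17.4 in synHPRT1R, against 9.26, 12.6 and 16.8 in synHPRT1 libraries, at fold percentile 89.3. The one 104 kb away (chr3:34756482-34757287) had 8.61, 11.2 and 13.6 in synHPRT1R, against 6.66, 9.51 and 11.9 in synHPRT1 libraries, and the one 108.4 kb away (chr3:34760874-34761615) had 13.5, 14.0 and 16.8, against 12.2, 17.7 and 19.5. This last member had the highest pileup of the 5, yet its fold percentile was 47.3 and that of its neighbour 7.32, with local backgrounds of 2.78 and 2.85. By fold, the member 92.4 kb away came first instead. The other 2 lay 82.3 and 478 kb away, at fold percentiles 68.1 and 67.4, and in all 5 the genotypes overlapped.

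Klf4, another core factor, was nearest to 1 member (chr4:55463599-55465048), 62.1 kb away, with relative pileups of 12.6, 15.4 and 17.2 in synHPRT1R, against 12.1, 14.3 and 20.7 in synHPRT1 libraries. Klf5, a related factor, was nearest to 5. The strongest of them (chr14:99509812-99510910, 196 kb away) had 17.6, 24.2 and 29.4 in synHPRT1R, against 21.2 at the lowest and 22.3 at the median in synHPRT1 libraries, whose highest value was below that of synHPRT1R, and was the highest pluripotency member in pileup at the synHPRT1R median. Its neighbour 203 kb from Klf5 had only 4.52, 6.18 and 8.95 in synHPRT1R, against 5.64, 8.29 and 9.88 in synHPRT1 libraries.

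Nr5a2, a nuclear receptor of embryonic stem cells, had 8 members at 90.5 to 427 kb, with fold percentiles of 50.6 to 98.1. The highest (chr1:137349818-137350561, 389 kb away) had relative pileups of 12.6, 17.1 and 23.2 in synHPRT1R, against 13.7, 15.3 and 16.7 in synHPRT1 libraries, a wider spread in synHPRT1R. Myc, the growth regulator, had 8 members at 88.4 to 779 kb, with fold percentiles of 42.2 to 90.7. The member 531 kb away (chr15:62521417-62522409) varied most, with 5.91, 10.7 and 19.4 in synHPRT1R, against 11.02, 13.1 and 14.8 in synHPRT1 libraries. Dusp6, a phosphatase that acts on ERK, which PD0325901 blocks upstream, had 5 members at 71.6 to 201 kb. The nearest (chr10:99339116-99340469) had 12.8, 15.2 and 19.02 in synHPRT1R, against 17.2, 21.6 and 24.7 in synHPRT1 libraries, with medians apart and ranges overlapping. Mycn had 2 members, and Otx2, Pou3f1, Sall1, Spry2, Tbx3 and Tcl1 had 1 each.

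**Figure D5:**
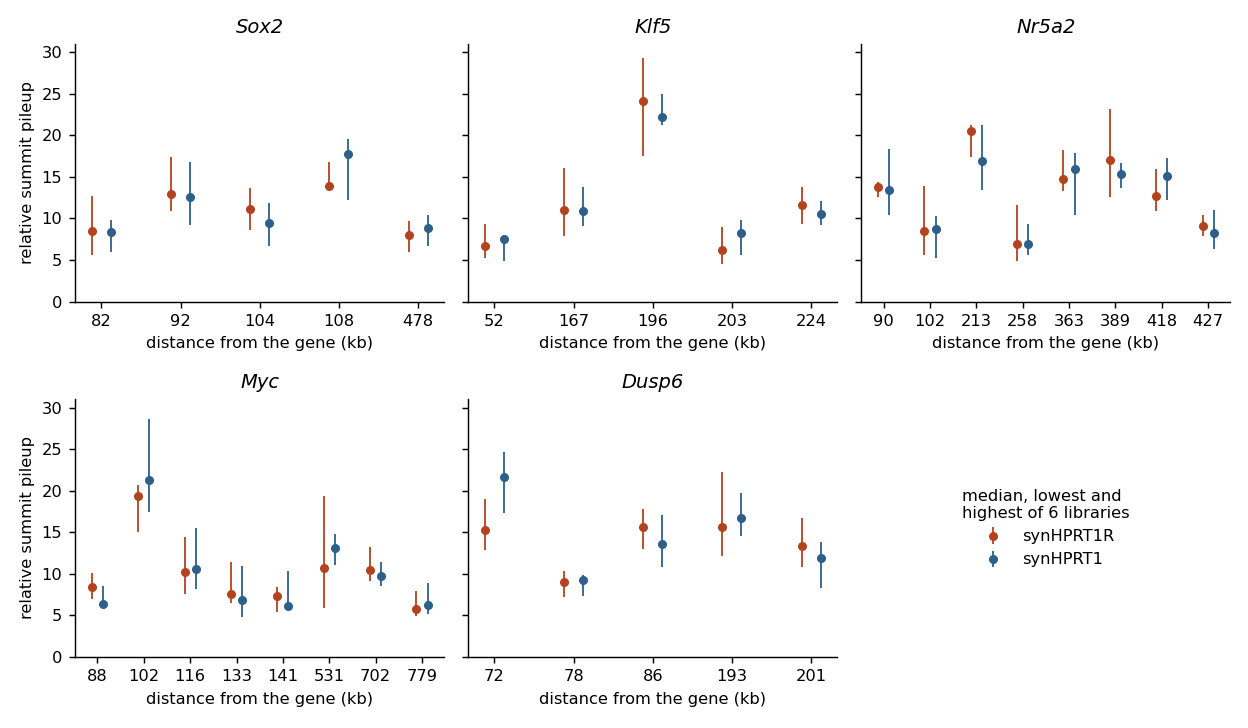
Relative summit pileup (y axis) of every member nearest to Sox2, Klf5, Nr5a2, Myc and Dusp6, ordered by distance from the gene in kb (x axis), with the median (point) and the lowest and highest (line) of 6 synHPRT1R and 6 synHPRT1 libraries. The ranges of the genotypes overlap at each member shown, and the Klf5 member 196 kb away, the Myc member 102 kb away and the Dusp6 member 72 kb away stand above their neighbours.

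Other gene lists, also written with earlier results known, gave these counts. Genes of neuronal adhesion and guidance, such as cadherins and contactins, were nearest to 212 members (6.57%) over 47 of 59 genes, against 0.463% of intergenic regions within 50 kb. They also take 8.17% of the far sequence, so their density of 3.10 members per Mb was below the 3.85 over all. Their median fold percentile was 79.6, and 54 (25.5%) reached the 90th, against 17.8% of all members and 18.2% of all constitutive regions. Of the 212, 4 had high local background. Among members, rank by fold went up with distance as far as 1000 kb while pileup did not. The part of distance in this share was not tested, and the list was not compared by pileup. Developmental transcription factors were nearest to 105 members (3.25%) over 42 of 75 genes, against 1.39% within 50 kb, at 4.09 members per Mb and a median fold percentile of 74.3, and 16 (15.2%) reached the 90th. Signalling ligands were nearest to 17 members (0.526%), against 0.324% within 50 kb, at 3.65 per Mb.

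Annotated non-coding genes, pseudogenes or antigen receptor gene segments overlapped 650 members (20.1%), and 536 of these overlapped a lncRNA gene. With distance measured from every annotated gene, 1157 regions would remain. Antigen receptor loci, which only lymphocytes rearrange, overlapped 36 members, 17 at Igh, 10 at Igk, 6 at Tcra, 2 at Igl and 1 at Tcrg. Their median fold percentile was 83.4, and 1 had high local background. A cluster of 7 at chr12:113858614-114068153, in the variable part of Igh and nearest to Adam6a, had a median fold percentile of 94.5. Its strongest member (chr12:114012574-114013614) had relative pileups of 35.5, 41.1 and 45.2 in synHPRT1R, against 41.1, 47.8 and 50.4 in synHPRT1 libraries. The other strong members on non-coding genes included one 100 kb from Meis1 (chr11:18779307-18780031), a homeobox gene, with 18.8, 20.6 and 22.8 in synHPRT1R and 17.8, 19.3 and 19.8 in synHPRT1 libraries. One 128 kb from Tsen15 (chr1:152241926-152242992), a subunit of the tRNA splicing endonuclease, had 20.9, 24.8 and 29.3 in synHPRT1R and 18.8, 24.9 and 29.3 in synHPRT1 libraries.

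By fold rank, no member differed between genotypes past the threshold. Folds were ranked among all 22472 constitutive regions within each library, turned into normal scores and fitted with limma, with clone as a correlated block. At an adjusted p under 0.05, 0 of 3229 members were called, against 0.0% of all constitutive regions, and the lowest adjusted p was 0.0792. At an unadjusted p under 0.05 there were 381 members (11.8%), against 9.36% of all, and 226 of the 381 were higher in synHPRT1R. Over all regions 1049 of 2103 were higher in synHPRT1R, or 4.67% of those tested. The median difference of the members was 0.028 in normal score, and 53.5% were positive, beside 49.3% of the other constitutive regions. By log2 summit pileup with the same block, 18 of 3229 members were called, 13 of them higher in synHPRT1R, against 56 of all 22472 regions (0.249%). By log2 pileup of clone means, 1 of 3229 members was called, against 2 of all 22472 regions (0.0089%). By log2 pileup without the clone block 0 members were called. The estimated correlation within clones was negative, at −0.0675 by fold rank and −0.0597 by pileup. A negative value lowers the standard error of a comparison between clones, so the p-values of fits with this block may be too small.

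The 3 members with the lowest p are given as values. The member at chr15:50328174-50328879, 326 kb from Trps1, a zinc finger repressor, had relative pileups of 8.08, 10.7 and 13.4 in synHPRT1R, against 5.07, 5.98 and 7.78 in synHPRT1 libraries. By relative pileup every synHPRT1R library was above every synHPRT1 library. By fold percentile, which the fit used, the libraries overlapped, at 59.7 to 96.6 in synHPRT1R and 23.4 to 63.6 in synHPRT1, with a difference in normal score of 1.74 (SE 0.298, limma adjusted p = 0.0792). The member at chr17:54942760-54943633, 501 kb from St6gal2, a sialyltransferase, had 5.43, 5.76 and 7.64 in synHPRT1R, against 7.29, 9.38 and 11.9 in synHPRT1 libraries (difference −1.34, SE 0.251, limma adjusted p = 0.092). The member at chr17:51345687-51346757, 164 kb from Tbc1d5, which regulates endosomal transport, had 5.38, 7.74 and 8.96 in synHPRT1R, against 4.44, 5.14 and 5.70 in synHPRT1 libraries (difference 1.23, SE 0.240, limma adjusted p = 0.113). The last 2 overlapped between genotypes by both measures.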

How the data were processed

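Peak lists of 12 ATAC-seq libraries were analysed, 1 list per library, so peaks were called per library. MACS2 2.1.0, deepTools 3.5.0, SAMtools 1.9, Bowtie2 2.2.9 and bcl2fastq 2.20 are listed in the submitters' processing notes, with builds mm10 and GRCm38. Their settings and any handling of duplicates, multi-mapping reads or blacklisted sequence were not given in the sources used here. The deposited fold is the authors' ratio of summit pileup to local background. For the same summit the authors deposited a −log10 p-value and a −log10 q-value. The deposited score equals 10 times the −log10 q-value, rounded down, and was not used further.

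Fold and −log10 p-value were solved for the summit pileup under a Poisson model, and 100% of recovered pileups under 100 reads were whole within 0.05 reads. No read counts were used, so depth was taken from the background of 1.74 to 3.72 reads. Peaks of chromosomes 1 to 19 were merged at 1 bp of overlap. The strongest peak of a region in a library gave its values. Genes, promoters and miRNAs came from RefSeq tables of GRCm38.p6, which give gene spans, and no genome sequence was used. Clusters joined members across gaps of at most 100 kb. Regions are named by rule: the 12 highest by fold percentile, 5 farthest, 5 widest, 5 largest clusters and 10 commonest genes, 12 highest near pluripotency genes with all near Sox2 and Klf4, 8 highest on non-coding genes, 5 on each side of 50 kb, 10 of the high-background set by pileup, and 3 lowest p between genotypes; other named regions were chosen after their values were seen. The members and lists were chosen with earlier results of these data known.

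Class medians of a library were set against each other in two-sided exact sign-flip tests (smallest p 0.000488 for 12 libraries) and genotypes with two-sided exact permutation tests of 6 against 6 (smallest p 0.00216). Members were tested with limma 3.58.1 and statmod 1.5.0 in R 4.3.3, on normal scores of fold ranks, with Benjamini-Hochberg adjustment over 22472 regions and a threshold of 0.05. Procedures were tested on simulated data. Python 3.11.15, numpy 2.4.6, pandas 2.3.3, scipy 1.17.1 and matplotlib 3.10.9 were used. Alternatives changed the rank, reference class, list length, q-value, distance, overlap, gap, clone or replicate block, and left out each library.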

Additional observations from a re-analysis of the deposited data

Results flagged for a closer look

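In groups of 6 libraries, 6 of 96 groups of values had a library farther from the others than Dixon's 95% critical value allows, and chance gives about 1 in 20. The median relative pileup of the far constitutive regions was 9.32 in synHPRT1R clone 2 replicate 1, below the 10.1 to 10.4 of the other synHPRT1R libraries. The same library was low at the member near Myc at chr15:62092258-62093514, with a relative pileup of 15.1 against 18.8 to 20.7. In synHPRT1 clone 2 replicate 3, 93.7% of the far regions of the other 11 libraries were listed, below 97.9 to 99.91% in the other synHPRT1 libraries. In synHPRT1R clone 2 replicate 3, the relative pileup was 17.4 against 20.1 to 21.2 in the other synHPRT1R libraries at the member near Nr5a2 (chr1:137173737-137174657). It was 38.3 against 45.2 to 49.0 at the member near Alkbh8 (chr9:3258593-3259118). In synHPRT1 clone 1 replicate 2, it was 8.91 against 12.6 to 14.6 at the member near Sall1 (chr8:89271017-89272176). No cause of these values was tested.

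The width difference between far and other constitutive regions was 19.8 bp closer to 0 in synHPRT1R than in synHPRT1 libraries (19.83 before rounding; p = 0.026, two-sided exact permutation test of 6 against 6). The test treats replicates of a clone as independent.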

How the results depend on the processing

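The number of far constitutive regions was 1221 if each peak had to cover 50% of its region, 2102 with −log10 q of at least 5 and 1157 with distance from every annotated gene. It was 3232 to 3446 with 1 library left out. The fold percentile difference from other constitutive regions (0.534, exact permutation p = 0.188) turned to −2.64 by −log10 p and −6.56 by pileup (both p = 0.000488), to −1.84 by pileup against intergenic regions within 50 kb (p = 0.00781) and to −0.0895 at 25 kb (p = 0.812). It passed 0.05 at 5.57 against intergenic regions within 50 kb, 1.41 with equal-length lists, 2.41 with −log10 q of at least 5, 1.46 at 100 kb and 2.26 with every annotated gene (exact p = 0.000488 to 0.0117). With 1 library left out it ranged from 0.236 to 1.08, and it passed without synHPRT1R clone 1 replicate 3 (0.935) or synHPRT1 clone 2 replicate 3 (1.08). The genotype difference of this value (0.902, exact p = 0.273) passed at 1.82 by pileup, 2.09 by pileup against intergenic regions within 50 kb, 1.5 with −log10 q of at least 5 and 1.30 at 25 kb (exact p = 0.0108 to 0.0281). It ranged from 0.755 to 1.61 with 1 library left out, passing without synHPRT1R clone 1 replicate 3 (1.37), clone 2 replicate 2 (1.46) or clone 2 replicate 3 (1.61). The pileup alternatives were chosen after seeing the data.

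The width difference turned to 46.0 bp against intergenic regions within 50 kb and was −61.6 to −58.0 bp with 1 library left out. Its genotype difference was 17.3 to 24.0 bp with 1 library left out and lost its call with every annotated gene (20.0 bp, exact p = 0.0606). The share in clusters was 37.5% and 69.0% with gaps of 50 and 200 kb, 48.0% with equal-length lists, 42.3% with −log10 q of at least 5, 55.5% at 25 kb, 50.1% at 100 kb and 35.7% with every annotated gene, and 52.6 to 55.0% with 1 library left out. Members called between genotypes were 18 by log2 pileup and 1 by log2 pileup of clone means, and 0 under the other 6 alternatives and with each library left out. With a replicate block in place of the clone correlation, 0 members were called. Replicate numbers did not pair the libraries: correlations of same-numbered libraries ran from −0.03 to 0.0303 over 18 pairs. Of 54 single members, 36 moved in percentile by −log10 p and 39 by pileup. Causes were not tested. Far regions missing from 1 library alone numbered 218 at a background of 1.74 reads and 4 at 3.72, but 63 at 2.79 and 6 at 2.68; the part of depth was not tested.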
